A study of Homo sapiens with 6 samples.

Results

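The genes described here encode membrane carriers of amino acids, the members of the solute carrier families SLC1, SLC3, SLC6, SLC7, SLC36, SLC38 and SLC43, among them SLC7A11 and SLC3A2, the pair that forms the cystine importer. Members were taken by gene name, but the families were chosen with earlier results of these data known. Of the 58735 genes of the deposited count table, 59 belong to these 7 families. Their RNA was measured by poly(A) RNA sequencing in Panc-1, an established human epithelial line from a pancreatic cancer and labelled as wild type. Panc-1 cells had been kept for 72 h with cancer-associated fibroblasts (CAF) in 3 libraries and for 72 h with CAF that overexpress PAI-1 in the other 3. The columns of the first group are headed CAF-NC, and the sources do not spell out NC. PAI-1 inhibits plasminogen activators. The question of the comparison is how carrier genes differ between tumour cells kept with the 2 kinds of fibroblast. The sources used here do not say how the CAF were obtained, how PAI-1 was overexpressed or how the 2 cell types were kept or parted. The titles call the replicates biological without saying whether they were separate cultures, and p-values then measure only how these samples vary. The extraction text of the labels speaks of Cal27, another cell line, while the other labels name Panc-1.

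Tumour cells draw amino acids from their surroundings through carriers of several kinds. Exchangers such as the SLC7 light chains swap 1 amino acid for another and reach the cell surface only when joined to a heavy chain, SLC3A1 or SLC3A2 (also called CD98 or 4F2hc). Sodium-coupled carriers such as SLC38A1 and SLC38A2 load the cell with small neutral amino acids, which the exchangers can then trade for others. The xCT light chain, SLC7A11, brings in cystine in return for glutamate, and cystine supplies the cysteine of glutathione. Many of these genes are known targets of ATF4, the transcription factor of the amino acid response.

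The 6 libraries held between 13628508 and 16006880 counts each. Levels are given as CPM, a gene's counts relative to its library total, with TMM scaling for differences in library composition, and 3 counts equal 0.182 to 0.218 CPM depending on the library. Keratins of epithelial cells were abundant, KRT8 at 1015 ± 31.6 CPM with CAF and 1140 ± 75.3 CPM with PAI-1 (SD, n = 3), while CDH1 (1.67 ± 0.21 CPM with CAF) and PDX1 were near 0. Of 12 epithelial and ductal markers tested 6 rose, KRT8, KRT18, KRT19, KRT7, SOX9 and GATA6, and CLDN4 fell. Over all genes tested 17.2% rose and 15.0% fell (edgeR adjusted p under 0.05). The summed level of that list was 2303 to 2407 CPM with CAF and 2579.9 to 2825 CPM with PAI-1, and its part in the results was not tested. Of 11 squamous markers, 9 stayed under 1 CPM in every library. Of 30 fibroblast markers, 22 stayed under 1 CPM in every library. Of these 22, 9 (DCN, LUM, COL1A2, PDGFRA, PDGFRB, FAP, POSTN, THY1 and PDPN) together had 31 counts in all 3 CAF libraries and 28 in all 3 PAI-1 libraries. The summed level of the 30 was 518 to 537 CPM with CAF and 666 to 762 CPM with PAI-1, mostly from S100A4, COL1A1 and FBLN1. Of the 8 fibroblast markers tested, S100A4, COL1A1 and LOX rose and none fell. The part of fibroblast RNA in the results was not tested beyond these values. Of 12 immune and endothelial markers 10 stayed under 1 CPM in every library. In bulk RNA, fewer cells of a type and less RNA per cell cannot be told apart. Mitochondrial genes held 5.53%, 5.81% and 5.92% of the counts in the CAF libraries and 5.12%, 3.78% and 4.76% in the PAI-1 libraries. This share was lower in all PAI-1 libraries and lowest in replicate 2, and its part in the results was not tested.

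About as many carrier genes were silent or nearly so as were expressed. Of the 59 members, 28 passed the filter on low counts, and 16 of these averaged at least 20 CPM. In all 6 libraries 24 of the 28 were over the filter level. The remaining 4 (SLC43A1, SLC7A2, SLC7A7 and SLC7A10) were over it in all libraries of 1 group only. With TMM scaling none of these 4 was called. The other 31 members were not tested. Among them SLC38A11, SLC6A2, SLC6A5, SLC6A18, SLC7A3, SLC7A8, SLC7A13 and SLC7A14 had no count in any library, which allows up to 0.218 CPM in a library, and the remaining 23 reached at most 1.03 CPM in any library. All 5 glutamate carriers of the EAAT kind (SLC1A1, SLC1A2, SLC1A3, SLC1A6 and SLC1A7) were among the genes not tested, as were the GABA carriers SLC6A11, SLC6A12 and SLC6A13, the monoamine carriers SLC6A2, SLC6A3 and SLC6A4, and SLC3A1, the heavy chain of the kidney's cystine carrier. The expressed set was thus made up of exchangers with SLC3A2, the ASC exchangers of SLC1, SLC7A1, most SLC38 genes and a few of SLC6, SLC36 and SLC43.

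Levels between genes were compared per kb of exon, where exons of all annotated transcripts of a gene were merged. Transcripts in use can be shorter, so the order of genes depends on these lengths. SLC7A5 stood first at 114 CPM per kb with CAF and 149.6 with PAI-1, and SLC38A2 second over all libraries at 115 and 78.3 CPM per kb. In the CAF libraries these 2 lay within their spread of each other, and with PAI-1 they did not overlap. SLC3A2, SLC1A5 and SLC38A1 followed, at 39.7, 43.1 and 44.2 CPM per kb with CAF, then SLC6A8 at 36.6, SLC38A10 at 25.0, SLC6A6 at 18.2 and SLC7A1 at 18.0. SLC7A11 lay below all of these, at 5.30 CPM per kb with CAF and 8.56 with PAI-1, beside SLC1A4 at 5.29 and 7.11. Over all libraries it ranked 10 among the 28 members tested. With PAI-1, SLC3A2 passed SLC38A1, at 65.2 against 51.0 CPM per kb.

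**Figure D1:**
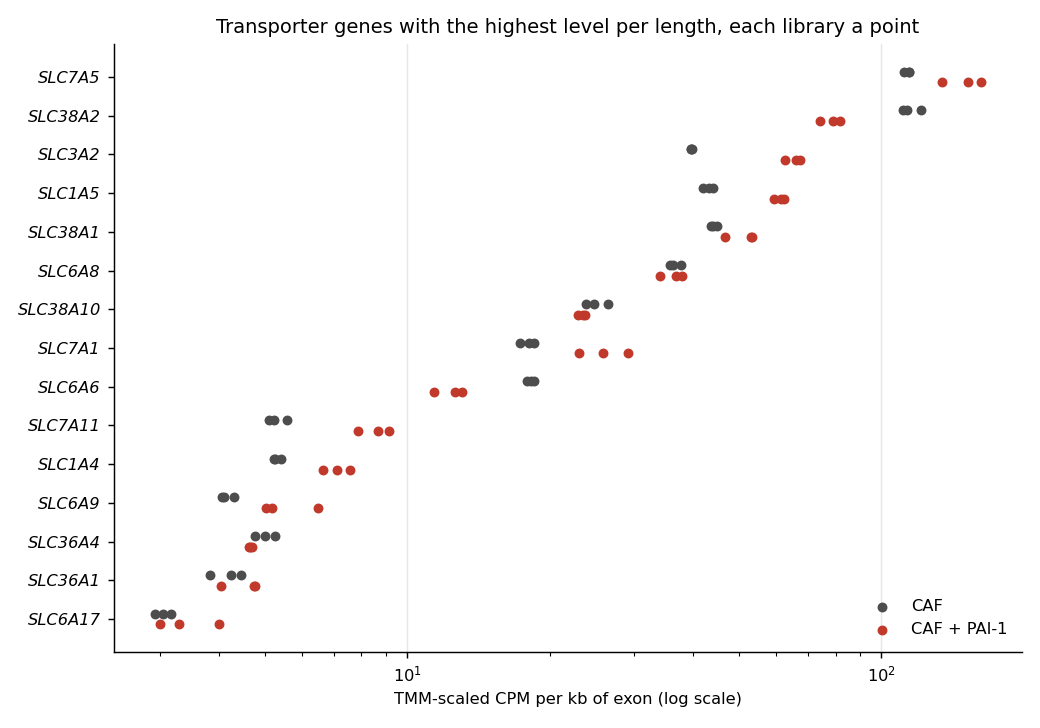
Level of the 15 transporter genes that averaged at least 3 CPM per kb of merged exon, in TMM-scaled CPM per kb on a log axis, with each of the 6 libraries as a point (grey for CAF, red for CAF overexpressing PAI-1). SLC38A2 and SLC6A6 lie lower with PAI-1, the groups of SLC6A8 overlap, and SLC7A5, SLC3A2, SLC1A5, SLC7A1 and SLC7A11 lie higher.

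Of the 28 members tested, 10 rose and 4 fell with CAF overexpressing PAI-1 (edgeR quasi-likelihood test, Benjamini-Hochberg adjusted p under 0.05 over all 14960 genes tested), 14 in all or 50.0%. Over all genes tested 32.2% changed, 17.2% higher and 15.0% lower, and the groups did not overlap for 43.4% of them, against 16 of 28 members. Among all genes of at least 20 CPM the share that changed was 43.7%, against 10 of 16 members at that level, 8 higher and 2 lower. The median log2 fold change was 0.18 over the 28 members and -0.0015 over all genes tested, and the median absolute value 0.37 against 0.21. The count of higher against lower members was 10 to 4 under TMM and RLE scaling and 9 to 7 when libraries were scaled by size alone. Changes were moderate, with log2 fold changes of called members from -0.97 to 1.00, and 5 called members reached 1.5-fold, where 8.41% of all genes did so.

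**Figure D2:**
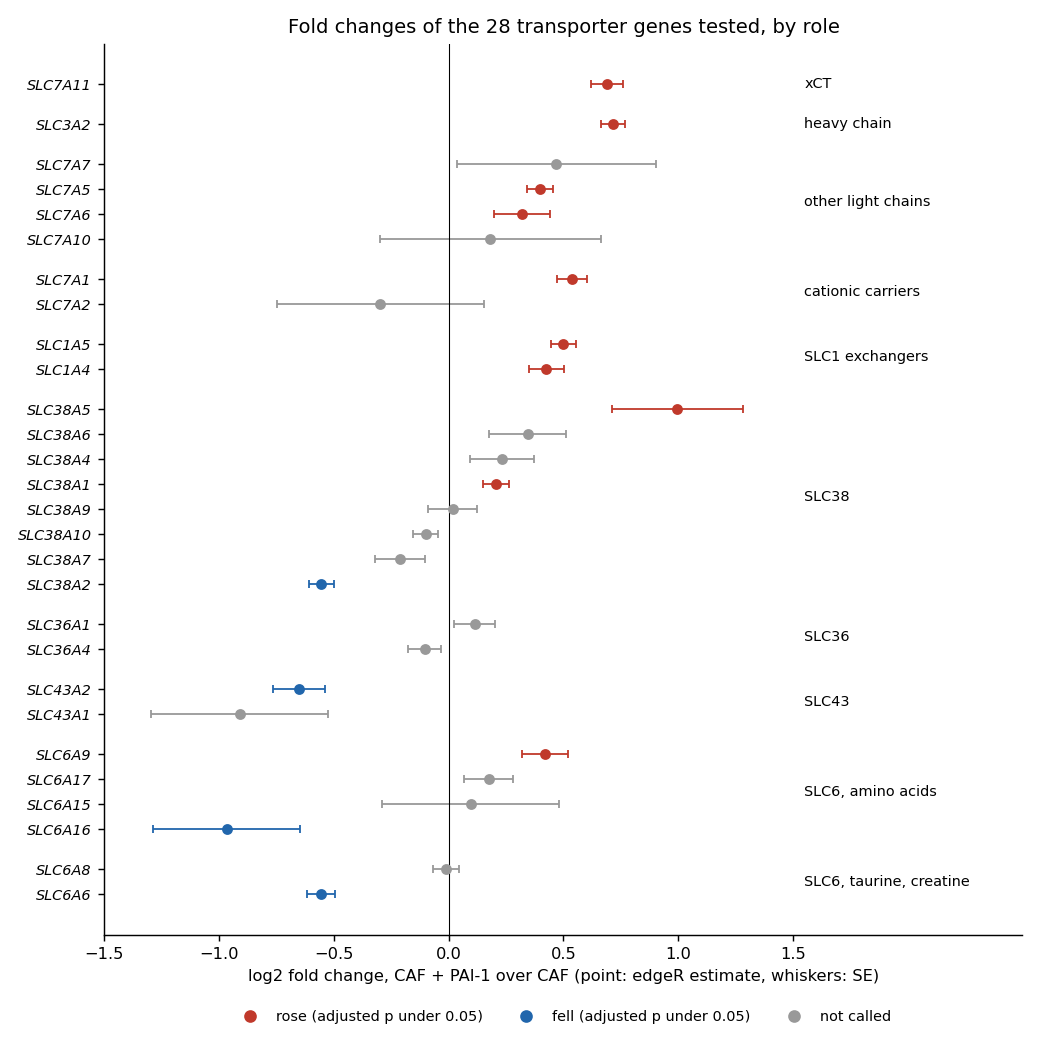
Log2 fold change (CAF overexpressing PAI-1 over CAF) of the 28 transporter genes tested, by role, with the standard error as whiskers and 3 libraries per group. The 10 that rose (red) are mostly exchangers, the SLC3A2 heavy chain and SLC7A1, and the 4 that fell (blue) are SLC38A2, SLC6A6, SLC43A2 and SLC6A16.

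The cystine importer rose in both parts. SLC7A11 (ENSG00000151012, chromosome 4, 138164097 to 138242349, minus strand, GENCODE release 29 on GRCh38) had 50.4, 53.9 and 49.1 CPM in CAF replicates 1 to 3 and 88.3, 83.7 and 75.8 CPM in the PAI-1 replicates. Every PAI-1 library lay above every CAF library. The mean went from 51.1 ± 2.46 to 82.6 ± 6.29 CPM (SD, n = 3 each), a 1.61-fold rise (log2 fold change 0.69, SE 0.070, edgeR adjusted p = 1.27e-09). SLC7A11-AS1, a transcript of the opposite strand that shares 865 bases with its exons, had 80 counts in all libraries against 5997 of SLC7A11.

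SLC3A2 (ENSG00000168003, chromosome 11, 62856102 to 62888875, plus strand) is the heavy chain that xCT shares with the other surface exchangers. It had 206, 206 and 205 CPM with CAF and 324, 348 and 342 CPM with PAI-1, so that the CAF libraries were nearly alike and lay well below the others. It rose 1.64-fold, from 205.7 ± 0.38 to 338 ± 12.4 CPM (log2 fold change 0.72, SE 0.053, edgeR adjusted p = 7.98e-13), the smallest adjusted p of all members.

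The other light chains of SLC3A2 rose less or were not called. SLC7A5 (LAT1, chromosome 16, 87830023 to 87869488, minus strand), the exchanger for leucine and other large neutral amino acids, had 544, 544 and 529 CPM with CAF and 770, 638 and 721 CPM with PAI-1. It rose 1.32-fold (log2 fold change 0.40, SE 0.058, edgeR adjusted p = 1.8e-06), with PAI-1 replicate 2 the lowest of its group and still above all CAF libraries. A pseudogene copy, SLC7A5P1, held 108 counts in all libraries against 56257 of SLC7A5. SLC7A6 (y+LAT2), which exchanges arginine for glutamine and other neutral amino acids, had 19.9, 16.9 and 15.1 CPM with CAF and 22.9, 17.1 and 24.8 CPM with PAI-1, and these ranges overlapped. Its call was marginal (log2 fold change 0.32, SE 0.12, edgeR adjusted p = 0.0447) and was kept in only 5 of 13 alternatives, with adjusted p from 0.000616 to 0.267. SLC7A6 shares 44.4% of its exon bases with SLC7A6OS on the opposite strand, and no source used here says whether reads were assigned by strand. SLC7A7 and SLC7A10 had at most 1.36 CPM in any library and were not called, the former at a log2 fold change of 0.47 (SE 0.43) and the latter at 0.18 (SE 0.48).

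Since light chains need SLC3A2, their summed level per kb was set against it within each library. SLC7A5, SLC7A6, SLC7A7, SLC7A8, SLC7A10 and SLC7A11 together had 3.08, 3.10 and 3.00 times the level per kb of SLC3A2 in the CAF libraries and 2.80, 2.17 and 2.48 times in the PAI-1 libraries. All PAI-1 libraries were lower, with replicate 2 the lowest. The size of these multiples depends on the merged exon lengths, among them 5178 bases for SLC3A2 and 4745 for SLC7A5. Transcripts in use can be shorter, so the multiples are compared between groups only and give no ratio of the chains. SLC7A5 made up 93.2% to 93.8% of the light chain sum with CAF and 92.3% to 92.8% with PAI-1. The share of SLC7A11 was 4.26%, 4.54% and 4.28% with CAF and 5.23%, 5.96% and 4.80% with PAI-1, higher in all 3. For light chains over SLC3A2 and for the share of SLC7A11 the exact permutation test, two-sided, gave p = 0.1 each, also adjusted over the 4 library values so tested, which is the smallest p that 3 libraries against 3 allow.

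**Figure D3:**
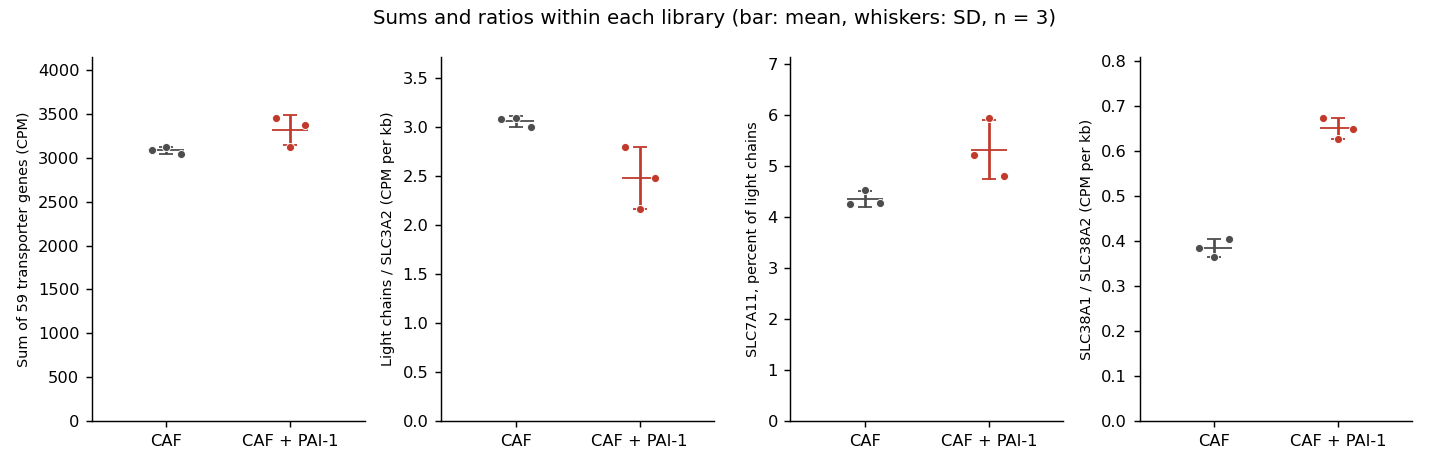
Values within each library for CAF (grey) and CAF overexpressing PAI-1 (red), with the mean and SD of 3 libraries: the summed CPM of the 59 transporter genes, the light chains over SLC3A2 per kb, the percent of SLC7A11 among light chains, and SLC38A1 over SLC38A2 per kb. With TMM scaling, on which only the sum depends, no panel shows overlap between the groups. The separation is widest in the last panel, at 0.365 to 0.405 against 0.628 to 0.674.

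The carrier of cationic amino acids SLC7A1 (CAT1), the main route for arginine and lysine in many cells, had 143, 133 and 139 CPM with CAF and 225, 177 and 199 CPM with PAI-1. The groups did not overlap, and replicate 2 was again the lowest with PAI-1. It rose 1.45-fold (log2 fold change 0.54, SE 0.066, edgeR adjusted p = 1.32e-07). SLC7A2, a second carrier of this kind, was near the floor at 0.75 ± 0.10 and 0.61 ± 0.090 CPM and did not pass.

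Both ASC exchangers of the SLC1 family rose. SLC1A5 (ASCT2, chromosome 19, 46774883 to 46788594, minus strand), which takes up glutamine, had 147, 144 and 140 CPM with CAF and 207, 204 and 198 CPM with PAI-1. It rose 1.41-fold with little spread in either group (log2 fold change 0.50, SE 0.055, edgeR adjusted p = 5.98e-09). SLC1A4 (ASCT1), an exchanger of alanine, serine and cysteine, had 36.4, 37.5 and 36.2 CPM with CAF and 52.5, 46.1 and 49.3 CPM with PAI-1. It rose 1.34-fold, also without overlap (log2 fold change 0.42, SE 0.076, edgeR adjusted p = 3.64e-05).

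**Figure D4:**
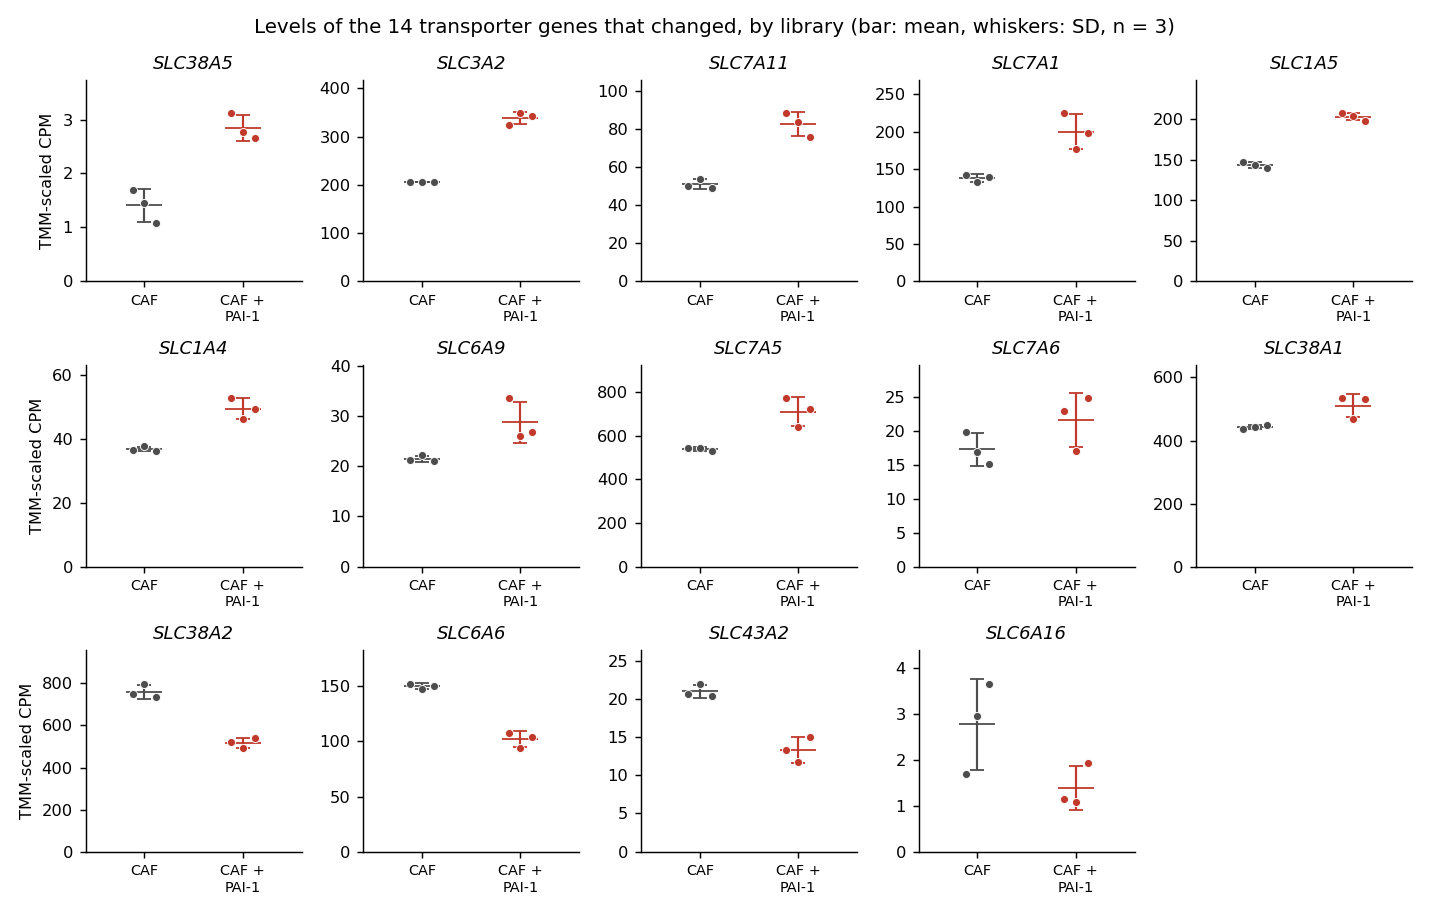
TMM-scaled CPM of the 14 transporter genes that changed, with each library as a point, the group mean as a bar and the SD as whiskers (3 libraries per group, axes from 0). In 12 of the panels the groups are apart, and in those of SLC7A6 and SLC6A16 they overlap.

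The SLC38 family, sodium-coupled carriers of glutamine and small neutral amino acids, moved in both directions. SLC38A2 (SNAT2, chromosome 12, 46358189 to 46372867, minus strand), whose RNA is known to rise when amino acids are withdrawn, had 748, 798 and 733 CPM with CAF and 521, 491 and 539 CPM with PAI-1. It fell to 0.68 of its level without overlap (log2 fold change -0.56, SE 0.054, edgeR adjusted p = 5.6e-10) and lost the largest number of CPM of any member. SLC38A1 (SNAT1), the closest relative with the same kind of transport, had 437, 442 and 450 CPM with CAF and 533, 467 and 531 CPM with PAI-1. It rose 1.15-fold (log2 fold change 0.21, SE 0.055, edgeR adjusted p = 0.00428), with an adjusted p between 4.83e-06 and 0.0497 over 13 alternatives. The ratio of SLC38A1 to SLC38A2 per kb was 0.385, 0.365 and 0.405 with CAF and 0.674, 0.628 and 0.65 with PAI-1 (exact permutation test, two-sided, p = 0.1, the smallest possible).

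SLC38A5 (SNAT5), a carrier of glutamine, asparagine and histidine, had the largest fold change among members that rose, at a low level. Its counts were 28, 23 and 15 with CAF and 46, 38 and 41 with PAI-1, or 1.41 ± 0.31 and 2.84 ± 0.24 CPM (log2 fold change 1.00, SE 0.29, edgeR adjusted p = 0.00679). SLC38A9, the arginine sensor of the lysosome that signals to mTORC1, had 19.9 ± 1.07 and 20.1 ± 2.72 CPM and did not pass (log2 fold change 0.02, SE 0.11). SLC38A7, a lysosomal exporter of glutamine, had 19.9 ± 1.31 CPM with CAF against 17.2 ± 2.06 with PAI-1. SLC38A10 had 193 ± 10.7 against 180.1 ± 3.30 CPM. Neither passed (edgeR adjusted p = 0.136 and 0.176), though both were called lower with library size alone (adjusted p = 0.045 and 0.0222). SLC38A4 and SLC38A6 were not called either, at log2 fold changes of 0.23 (SE 0.14) and 0.34 (SE 0.17) respectively.

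In the SLC43 family, SLC43A2 (LAT4), which lets branched-chain amino acids and phenylalanine leave or enter by facilitated diffusion, had 20.6, 22.0 and 20.4 CPM with CAF and 13.3, 11.7 and 15.1 CPM with PAI-1. It fell to 0.636 of its level (log2 fold change -0.65, SE 0.11, edgeR adjusted p = 1.98e-05), with no overlap. SLC43A1 (LAT3), a carrier of the same substrates, lay at 1.62 ± 0.70 and 0.87 ± 0.22 CPM with a log2 fold change of -0.91 (SE 0.39), and did not pass (edgeR adjusted p = 0.0677, or 0.0492 with library size alone). It entered the test through the CAF libraries, where it was higher, and this limits what both p-values can show. SLC36A1 and SLC36A4, proton-coupled carriers, had 29.2 ± 2.22 against 31.5 ± 2.88 CPM and 48.5 ± 2.36 against 45.2 ± 0.43 CPM, and neither passed (edgeR adjusted p = 0.363 and 0.289).

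In the SLC6 family the genes that changed carry different substrates. SLC6A6 (TauT), the taurine carrier, had 152, 147 and 150 CPM with CAF and 108, 93.8 and 104 CPM with PAI-1. It fell to 0.68 of its level without overlap (log2 fold change -0.56, SE 0.060, edgeR adjusted p = 4.38e-09). SLC6A9 (GlyT1), a glycine carrier, had 21.2, 22.2 and 21.0 CPM with CAF and 33.4, 26.0 and 26.7 CPM with PAI-1. It rose 1.34-fold, with PAI-1 replicate 1 standing above the other two (log2 fold change 0.42, SE 0.099, edgeR adjusted p = 0.00118). It shares 404 bases of exon with CCDC24 on the opposite strand, which held 1042 counts against 2258 of SLC6A9.

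SLC6A8, the creatine carrier and the most abundant SLC6 gene, had 200, 207 and 197 CPM with CAF and 208, 188 and 203 CPM with PAI-1. These overlapped, and the log2 fold change was -0.01 (SE 0.056). SLC6A17, a vesicular carrier of neutral amino acids known from neurons, went from 20.3 ± 0.80 to 22.8 ± 3.41 CPM and did not pass. SLC6A16, whose substrate is not established, was low, with counts of 28, 47 and 51 against 17, 15 and 30. Its log2 fold change was -0.97 (SE 0.32, edgeR adjusted p = 0.0186) and its groups overlapped, and 4 of 12 alternatives did not call it (adjusted p from 0.00409 to 0.134).

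Summed over the 59 genes, the carriers had 3092, 3121 and 3046 CPM with CAF and 3461, 3129 and 3376 CPM with PAI-1. PAI-1 replicate 2 lay barely above the highest CAF library (exact permutation test, two-sided, p = 0.1). This separation depends on the scaling, with TMM factors of 1.02 to 1.03 for the CAF libraries and 0.970 to 0.986 for the PAI-1 libraries. Without these factors PAI-1 replicate 2 would lie below all CAF libraries. The makeup of the sum differed more than its size. SLC38A2 held 24.0% to 25.6% of it with CAF and 15.1% to 16.0% with PAI-1, SLC7A5 17.4% to 17.6% and 20.4% to 22.3%, and SLC3A2 6.59% to 6.74% and 9.36% to 11.1%. These shares are of CPM and not per length, and so compare each gene with itself.

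Promoter sequence was looked at for the members that changed together. RefSeq promoter entries (GRCh38.p14) existed for 24 of the 28 tested members, and SLC7A11, SLC6A6, SLC6A15 and SLC7A2 had none. The 250 bases before each annotated start, often several per gene, were searched on both strands for 4 motifs: TGATGNAA, the core of the site bound by ATF4 with C/EBP partners, TGACNNNGC, the antioxidant response element bound by NRF2, TGANTCA, the AP-1 site, which can overlap the preceding one, and CACGTG, the E-box bound by MYC among others. Many of these windows overlap exons annotated in GENCODE, and in some, such as that of SLC38A6, all 250 bases are exonic. Of 9 matched members that rose, 1 held the first, 4 the second, 2 the third and 3 the last. Of 3 matched members that fell the numbers were 0, 0, 1 and 1, and of 12 that were not called 0, 1, 3 and 3. Over all genes of the RefSeq table, which differ in their number of starts, the shares with a match were 3.89%, 13.2%, 8.06% and 7.73%.

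The following stretches show where such matches lie in members that rose, with the motif in capitals and the rest in lower case, 5′ to 3′ on the strand of the gene. For SLC7A5 and SLC7A1 and for 1 of the starts of SLC38A1 they are the 140 bases before the start (chr16:87869508-87869647, chr13:29595689-29595828 and chr12:46266517-46266656, minus strand each), holding the E-box, the antioxidant element and the AP-1 site. This start of SLC38A1 lies inside the gene. For SLC3A2 and SLC1A5 they are 30 bases around the match (chr11:62881652-62881681, plus strand, and chr19:46784893-46784922, minus strand). In SLC3A2 the match lies 37 bases before a start inside the gene and is an AP-1 site and an antioxidant element at once, and in SLC1A5 the ATF4 motif lies 97 bases before a start inside the gene.
SLC7A5: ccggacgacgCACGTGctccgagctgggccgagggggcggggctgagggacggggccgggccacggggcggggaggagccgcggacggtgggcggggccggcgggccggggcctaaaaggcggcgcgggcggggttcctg
SLC7A1: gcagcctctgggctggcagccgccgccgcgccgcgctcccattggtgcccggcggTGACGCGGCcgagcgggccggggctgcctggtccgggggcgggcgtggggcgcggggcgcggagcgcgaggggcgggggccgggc
SLC38A1: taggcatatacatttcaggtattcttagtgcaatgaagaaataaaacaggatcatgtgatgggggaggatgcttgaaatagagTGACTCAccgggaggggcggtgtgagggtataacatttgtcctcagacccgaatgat
SLC3A2: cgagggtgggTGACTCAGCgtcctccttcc
SLC1A5: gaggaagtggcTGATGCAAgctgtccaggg
These matches describe the letters of the windows only, and no binding was measured.

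Genes around the carriers were taken from lists of their pathways, whose counts stand beside 17.2% higher, 15.0% lower and a median of -0.0015 over all genes tested. The lists share genes, since CHAC1, SESN2, ASNS and GPT2 stand in that of the amino acid response and again in another. In the list of the amino acid response, whose kinase GCN2 senses uncharged tRNA and whose factor ATF4 switches on carriers and synthesis enzymes, 28 of 33 tested genes rose and none fell (median log2 fold change 0.44). This list holds none of the carriers of the 7 families, of which 10 rose and 4 fell, SLC38A2 among the latter. ATF3, a transcription factor induced with ATF4, and TRIB3, a pseudokinase that restrains ATF4, both rose, ATF3 from 14.01 ± 1.28 to 37.6 ± 1.87 CPM (log2 fold change 1.43) and TRIB3 from 50.1 ± 3.51 to 100.1 ± 5.47 CPM. SESN2, a leucine sensor, rose from 36.6 ± 3.53 to 77.5 ± 3.14 CPM. GDF15, a stress cytokine, rose by 0.71 on the log2 scale and ATF4 itself by 0.45 (SE 0.055, edgeR adjusted p = 5.36e-08). ASNS, which makes asparagine, was low and close to the threshold at 3.38 ± 0.56 and 4.84 ± 0.69 CPM (edgeR adjusted p = 0.0499), and GCN1, PSPH, GPT2, IMPACT and EIF2AK3 did not pass.

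In the list of glutathione and cysteine genes 5 of 25 rose and 3 fell (median 0.08), shares close to those over all genes. CHAC1, which breaks down glutathione, rose by 0.86 on the log2 scale, and GCLC and GCLM, the subunits of the enzyme that joins cysteine to glutamate, by 0.31 and 0.32. LANCL1 and ABCC1, an exporter of glutathione conjugates, were among those that fell, by 0.34 and 0.29. The rising count was 3 with library size alone and 3 without CAF replicate 3. GPX4, the peroxidase that holds back ferroptosis, had 249 ± 20.04 and 243 ± 19.8 CPM and did not pass.

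Among enzymes that use glutamine, branched-chain amino acids and arginine, 6 of 19 rose and 2 fell (median 0.18). ODC1, the first enzyme of polyamine synthesis, rose by 0.65 and GOT1 by 0.37 on the log2 scale. DBT and GOT2 fell, at -0.43 and -0.19. Leaving out CAF replicate 2 or PAI-1 replicate 3 left 1 gene lower. Of 16 tested amino acid carriers outside the 7 families, 5 rose and none fell (median -0.0052), while 1 was lower with library size alone, without PAI-1 replicate 1 and without PAI-1 replicate 2. SFXN1, a serine carrier of mitochondria, had a log2 fold change of 0.25, SLC15A4 0.31, SLC25A22, a glutamate carrier of mitochondria, 0.24 and SFXN3 0.26.

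The mTORC1 list, which holds the kinase complex that amino acids switch on at the lysosome and its sensors, had 6 of 38 genes higher and 9 lower (median -0.11). Library size alone gave 15 lower, a scaling under which lower calls over all genes also went from 2239 to 3182. Beside SESN2, SEH1L and MIOS of the GATOR2 complex rose by 0.43 and 0.47, and CASTOR2, from the family of arginine sensors, had the largest fall, from 5.86 ± 0.72 to 2.23 ± 0.20 CPM (log2 fold change -1.40, SE 0.21). FNIP1, TSC1 and MTOR had -0.44, -0.39 and -0.28. Among partners and regulators of the carriers 6 of 17 rose and none fell (median 0.0055), while 1 was lower with library size alone, without CAF replicate 2 and among genes averaging 10 CPM or more. Among those that rose, MYC had a log2 fold change of 0.54, BACH1, a repressor of antioxidant genes, 0.48, the ubiquitin ligase NEDD4 0.39 and the kinase SGK1 0.63. CD44, known to stabilise xCT at the cell surface, had 1353 ± 37.3 and 1338 ± 51.4 CPM and did not pass. LAPTM4B, which recruits SLC7A5 to lysosomes, was not called at -0.08, nor was BSG at 0.08 on the log2 scale.

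**Figure D5:**
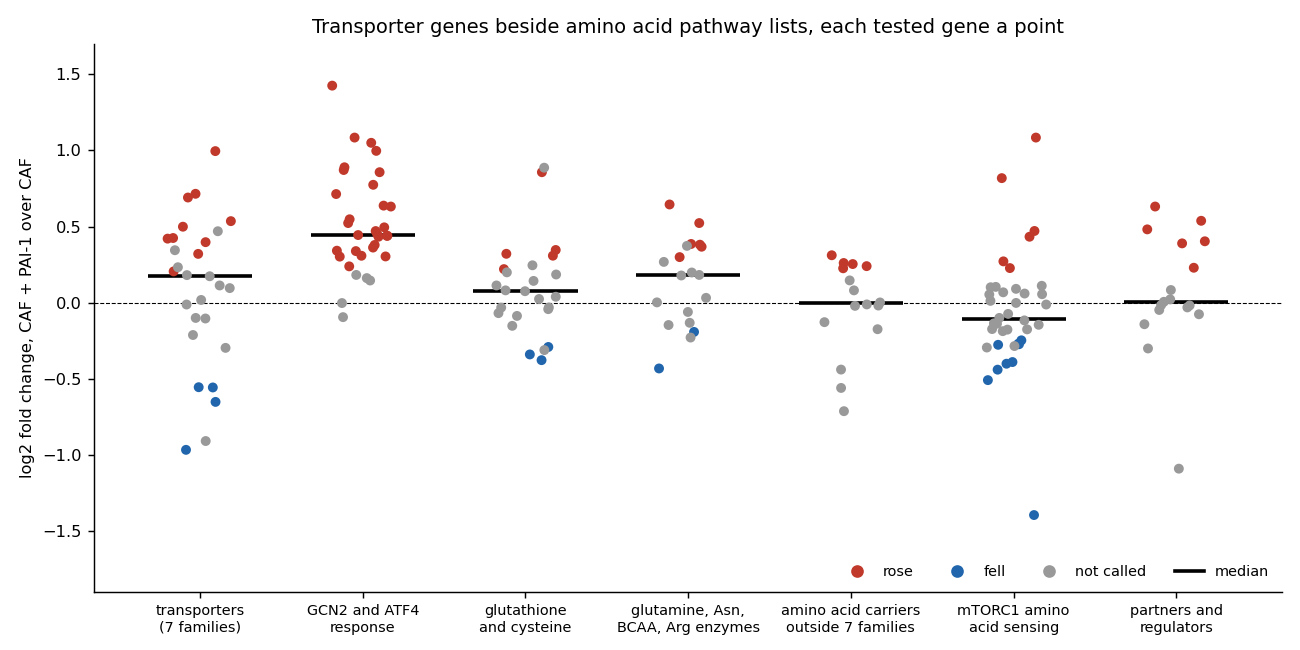
Log2 fold change (CAF overexpressing PAI-1 over CAF) of each tested gene among the transporters and in 6 lists of amino acid pathways, with the median of each as a black line and genes that rose, fell or were not called in red, blue and grey. The list of the GCN2 and ATF4 response lies highest, with a median of 0.44, and the transporters have members on both sides of 0.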

How the data were processed

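RNA of 6 libraries (3 per group) was analysed from a deposited table of read counts per gene, made by the authors. BWA, Bowtie2, RSEM and hg19 are named, per the submitters' processing notes, without versions or roles, and no source used here gives the strand setting. All 58735 gene identifiers were found in GENCODE release 29 (GRCh38), whose coordinates and exon lengths were used, while the notes name hg19.

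Differences were assessed by edgeR (version 4.0.16, under R 4.3.3) on these counts (filterByExpr with a minimum count of 10 and total of 15, TMM scaling, robust quasi-likelihood F test, Benjamini-Hochberg adjustment over 14960 genes, threshold 0.05). An SE is the log2 fold change over the square root of F. The method was tested on simulated data. CPM were computed here from the counts and the TMM scaling. The 13 alternatives were RLE scaling, library size alone, no filter, a mean of at least 10 CPM, DESeq2 1.42.0, limma-voom (limma 3.58.1), a replicate block and leaving out each library. Exact permutation tests compared sums and ratios between libraries. Floors cover counting error only.

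The members, the 10 gene lists and the tests were chosen with earlier results of these data known. Members with at least 20 CPM, called members and, in each list, the 4 genes of smallest p and those going against it are named by rule, and other genes were named after their values were seen. Values of a few genes that this rule covers are not reported here.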

Additional observations from a re-analysis of the deposited data

How the results depend on the processing

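Of the 14 members that changed, 12 kept their call in each alternative that tested them, SLC7A6 lost it in 8 of 13 and SLC6A16 in 4 of 12. Scaling by library size alone moved the median of all genes by -0.068 on the log2 scale, gave 1839 genes higher and 3182 lower against 2571 and 2239, and gave 7 members lower and 9 higher, since SLC43A1, SLC38A7 and SLC38A10 were then called and SLC7A6 was not. The log2 fold change of SLC38A9, 0.02, turned to -0.049 with library size alone, -0.0044 with a mean of at least 10 CPM, -0.0081 without CAF replicate 1 and -0.095 without PAI-1 replicate 1, and that of SLC6A8, -0.01, to 0.0095 without CAF replicate 2 and 0.026 without PAI-1 replicate 2, with no call in any of them. Leaving out each library gave -0.095 to 0.11 for SLC38A9 and -0.047 to 0.026 for SLC6A8. The cause was not tested. Leaving out each library gave 3942 to 4673 genes changed, 9 to 10 members higher and 3 to 4 lower. RLE gave 10 members higher and 4 lower, no filter 10 and 4, a mean of at least 10 CPM 8 and 3, where fewer genes were tested, DESeq2 9 and 3, and limma-voom 9 and 4. Counts of the pathway and marker lists, an alternative chosen after seeing the data, stayed within 1.5 times in 244 cases and moved further in 16. Depth limits members near 1 CPM, whose SE reached 0.48.

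With the replicate number as a block, 5069 genes changed, and 10 members were higher and 4 lower. Deviations of libraries with the same number correlated at 0.0023 to 0.012, under the 0.1 set for pairing, so that the numbers were not taken to pair libraries, although 5 of 6 libraries correlated best with their own number. The block changed no call of a member.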
